A study of Mus musculus with 12 samples.

Results

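The transcripts described here are those encoded by the mitochondrial genome, taken as every gene of the count table whose symbol starts with mt-. They are 37 of 55376 listed genes, namely 13 mRNAs, 2 rRNAs and 22 tRNAs, and all 37 lie on chrM of the GRCm38 assembly. Both rRNAs and 8 of the 13 mRNAs had at least 1 count in some library, and 12 of the 22 tRNAs did. The filter on low values, at least 1 CPM in at least 3 libraries, kept 9 of the 15 mRNAs and rRNAs and 6 tRNAs. For this filter and for limits of detection CPM is a count scaled to the library total alone, and all other CPM and RPKM values are also scaled by TMM, a factor per library set from the bulk of the genes.

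Mitochondrial DNA is transcribed on both strands into long precursors, from which the tRNAs are cut out between the rRNAs and mRNAs. The mRNAs are translated inside the organelle on mitochondrial ribosomes, which hold mt-Rnr1 in the small subunit and mt-Rnr2 in the large subunit, and cycloheximide, which stops cytosolic ribosomes, does not stop these. The proteins made are subunits of respiratory complex I (the mt-Nd genes), complex III (mt-Cytb), complex IV (the mt-Co genes) and the ATP synthase (mt-Atp6 and mt-Atp8).

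RNA-Seq was carried out on 4T1, a line of mouse mammary gland cancer cells, after stable transfection with either empty vector (mock) or full-length Mettl7a1 cDNA under the CMV promoter (METTL7A1), both kept in G418. Every group carries a 5 min treatment with cycloheximide at 0.1 mg/ml, given before lysis with Triton X-100 and deoxycholate. After sucrose gradient centrifugation, free subunits and monosomes were pooled as sub-polysomal RNA (fractions 3 to 7), and light with heavy polysomes as polysomal RNA (fractions 8 to 11). The 4 groups were mock sub-polysomal, mock polysomal, METTL7A1 sub-polysomal and METTL7A1 polysomal, with 3 libraries each, with the letters A, B and C for mock and D, E and F for METTL7A1. Whether either line is a clone is not given in the sources used here, and since no letter occurs in both genotypes, culture and genotype cannot be told apart. Whether the letters mark separate cultures is not labelled, so p-values measure the spread between these libraries.

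Library totals lay between 1817520 and 6966156 counts. The transfected gene, Mettl7a1, lay between 1.26 and 3.28 CPM in the mock libraries and between 236 and 395 CPM in the METTL7A1 libraries. The epithelial markers Krt8, Krt18, Krt19, Epcam and Cdh1 were at 56.5 CPM or more in every library, whereas leukocyte, endothelial and fibroblast markers were at or below 1 CPM other than Pdgfra, which reached 5.87 CPM. METTL7A1 polysomal library F stood apart from libraries D and E of its group in 8 genes, by more than 3-fold with 5 CPM added to each value. These were mt-Rnr1, mt-Rnr2 and 6 nuclear genes, among them n-R5-8s1, a cytosolic rRNA gene, at 305 CPM in F against a mean of 12.9 CPM in D and E, and Gm42418, a gene known to overlap cytosolic rRNA sequence, at 26349.9 against 1945 CPM. For total RNA libraries of the same cells, the paper gives rRNA depletion with Ribo-Zero Plus. If the libraries used here were made in the same way, all rRNA values are of the RNA that remained after depletion. In the main fit, mitochondrial rRNA changes between METTL7A1 pools and between genotypes in polysomal RNA are therefore given with and without library F. Shares, medians and correlations that include the rRNAs hold library F and are given only with it.

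Almost no count fell on the central stretch of the mitochondrial genome. Of the mRNAs for cytochrome oxidase subunits mt-Co2 and mt-Co3, ATP synthase subunits mt-Atp8 and mt-Atp6, and complex I subunits mt-Nd3 and mt-Nd4l, mt-Co2 had 1 count in 1 library, METTL7A1 sub-polysomal F, and the other 5 had 0 counts in all 12 libraries. A count of 0 allows up to 3 counts, which is 1.65 CPM in the library with the lowest total. These 6 mRNAs and 5 tRNAs (mt-Ts1, mt-Td, mt-Tk, mt-Tg and mt-Tr) are the 11 genes that lie wholly inside chrM:6381-11042, a span of 4662 bases that runs from the first to the last base matched by nuclear pseudogenes at chr1:24611535-24616197 on the minus strand. Together the 11 genes had 1 count. The 9 mRNAs and rRNAs outside the span, or partly outside it, had between 258 and 183935 counts in each library, and of the 17 tRNAs outside it 5 were at 0. Genes were described as inside or outside the span after their counts had been seen.

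The copy carries 7 annotated pseudogenes, of which 5 matched their mitochondrial gene at every aligned base: Gm28661 for mt-Co2 (681 bases), Gm10925 for mt-Atp6 (678 bases), Gm28437 for mt-Co3 (783 bases), Gm10222 for mt-Nd4l (294 bases) and Gm28439 for the first 876 bases of mt-Nd4. The other two differed at a single base of 345 in mt-Nd3 (Gm28438) and at 6 of 492 bases in mt-Co1 (Gm29216), from its base 1054 to its end. The 7 pseudogenes held 134 counts in all, 74 of them on Gm28438, so few counts were listed under the copies. Bases between the pseudogenes, which hold the 5 tRNAs and all of mt-Atp8 but the 43 bases it shares with mt-Atp6, were not compared. A further 2 listed names of such copies, Gm29217 and Gm29218, had 0 counts. The starts of 3 pairs are shown to let the likeness be seen, with bases that differ between gene and copy in capitals, 5′ to 3′ on the gene's strand in GRCm38. For mt-Co2, chrM:7013-7042 on the plus strand and chr1:24615536-24615565 on the minus strand had no difference.
mt-Co2: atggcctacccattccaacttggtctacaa
Gm28661: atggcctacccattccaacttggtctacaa
For mt-Nd3, chrM:9459-9488 and chr1:24613090-24613119 differed by T3C, counted from the first base of the gene.
mt-Nd3: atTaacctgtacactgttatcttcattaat
Gm28438: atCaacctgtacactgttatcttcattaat
For mt-Co1, chrM:6381-6410 and chr1:24616168-24616197 hold all 6 differences, T1056A, C1057T, A1059G, A1060G, C1062A and A1066T, at the edge of the copy.
mt-Co1: ggTCtAAcCggaAttgttttatccaactca
Gm29216: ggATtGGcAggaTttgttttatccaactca
How reads that match several places were treated in the counting is not given in the sources used here, and its part in these values was not tested. The 6 mRNAs therefore enter none of the comparisons, and mt-Co1 and mt-Nd4 may have been counted over only the 1053 and 502 bases that lie outside the copy.

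**Figure D1:**
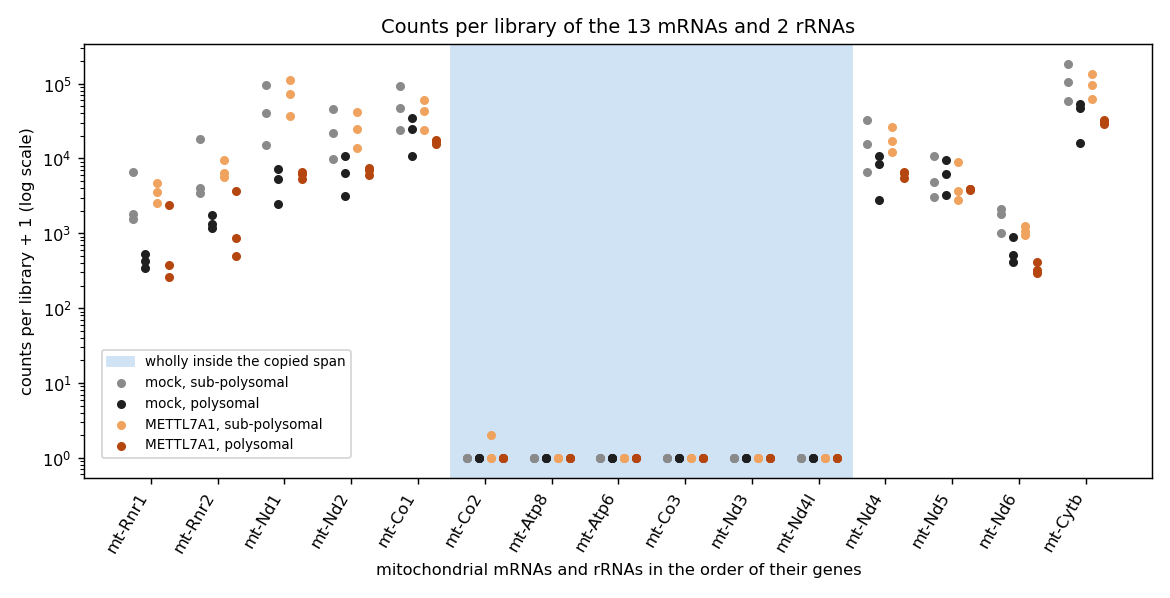
Counts per library (log scale, 1 added) of the 13 mRNAs and 2 rRNAs in the order of their genes, by group, with the genes wholly inside the copied span shaded. The 6 shaded genes are at 0 in every library, other than 1 count of mt-Co2, while the 9 others lie between 258 and 183935 counts.

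Mitochondrial genes took up a larger share of the sub-polysomal than of the polysomal counts. In mock cells the share was 6.87%, 6.71% and 8.49% in sub-polysomal libraries A, B and C, and 0.684%, 2.13% and 1.43% in their polysomal libraries. In METTL7A1 cells it was 4.37%, 5.33% and 7.67% in sub-polysomal libraries D, E and F, and 1.04%, 1.09% and 1.46% in the polysomal libraries. The pools did not overlap in either genotype, while the genotypes overlapped in both pools. The 13 mRNAs made up nearly all of it, with group means between 1.15% and 7.07%, the 2 rRNAs between 0.0294% and 0.290%, and the 22 tRNAs at most 0.00300%. The METTL7A1 polysomal mean of the 2 rRNAs held library F at 0.113%, with D and E at 0.0190% and 0.0109%. Between genotypes, fewer mitochondria, less RNA in each of them and a different release of it at lysis cannot be told apart in bulk RNA. What set the difference between pools was not tested. Shares and CPM are relative to the other RNA of the same pool.

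Among the measured mRNAs, mt-Cytb, the only mitochondrial subunit of complex III, had the highest level per length in all 4 groups. In CPM per kilobase of gene (RPKM) it was 29949 ± 1554 (SD, n = 3) in mock sub-polysomal and 22113 ± 5146 in METTL7A1 sub-polysomal RNA. In the latter mt-Nd1 followed at 19736 ± 7509 RPKM, and their ranges overlapped. The next in mock sub-polysomal RNA were mt-Nd1 at 14065 ± 5460.1 and mt-Co1 at 10048 ± 1586 RPKM, whose ranges overlapped, and then mt-Nd2 at 6838 ± 1661 and mt-Nd4 at 3630 ± 967 RPKM. The lowest were mt-Rnr2 at 1434 ± 767, mt-Nd6 at 1207 ± 794, mt-Nd5 at 980 ± 156 and mt-Rnr1 at 960 ± 374 RPKM, which did not differ beyond their spread. Divided by only the bases outside the copy, mt-Co1 came to 14743 ± 2327 and mt-Nd4 to 9964 ± 2655 RPKM, which put mt-Co1 level with mt-Nd1 and mt-Nd4 above mt-Nd2. In mock polysomal RNA mt-Nd1, at 686 ± 334 RPKM, came after mt-Co1 at 2001 ± 1069, mt-Nd2 at 871 ± 527 and mt-Nd4 at 700 ± 396 RPKM, and the ranges of these 4 overlapped.

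**Figure D2:**
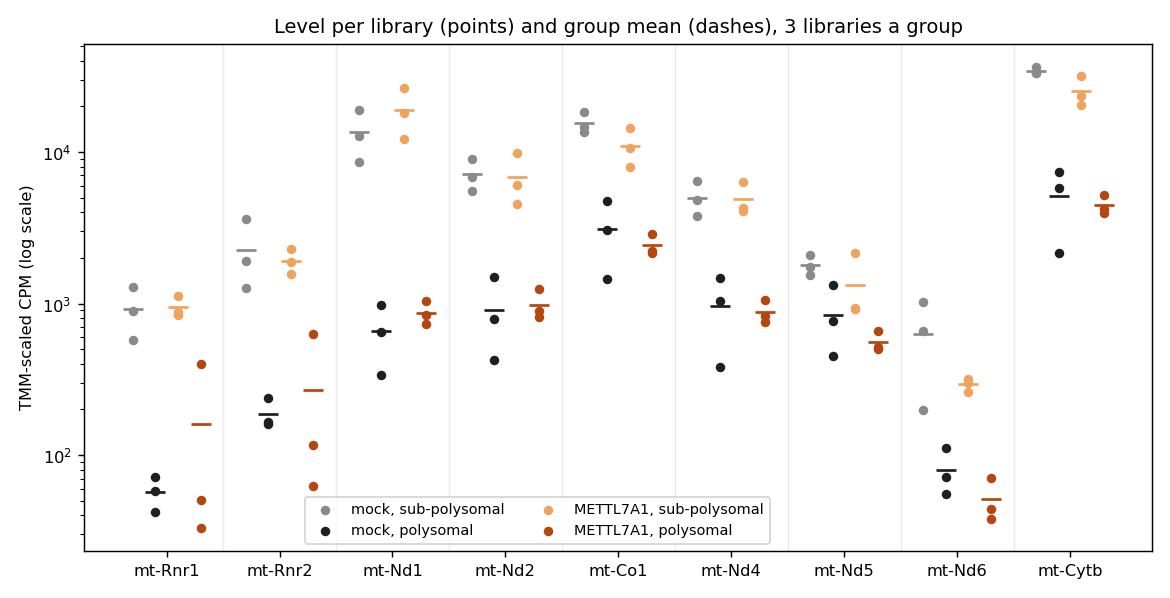
TMM-scaled CPM (log scale) of the 9 measured mRNAs and rRNAs in each library, with points for libraries and dashes for the means of 3 libraries. Within each genotype every sub-polysomal point lies above every polysomal point of the same gene, most narrowly for mt-Nd5 in mock cells (1537 and 1323 CPM). How many of all genes were separated in this way was not counted. METTL7A1 polysomal library F is the high point of mt-Rnr1 (397 CPM) and mt-Rnr2 (626 CPM).

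The comparison of the pools asks which RNAs travel with polysomes, and 8 of the 9 measured mRNAs and rRNAs were lower in the polysomal pool in each genotype, with none higher. Genes were called at a log2 change beyond 1.5 with a p-value below 0.01 in edgeR's quasi-likelihood test after Benjamini-Hochberg adjustment over 12224 genes. Of all genes, 6.86% were called lower and 0.687% higher in mock cells, and 10.3% and 1.76% in METTL7A1 cells. The median log2 change of the 9 was -2.97 in mock and -2.53 in METTL7A1 cells, against 0.05 and 0.06 over all genes. How many of all genes lacked overlap between pools was not counted, so lack of overlap is given below as description only. The values of both genotypes are separate measurements with no library in common.

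The rRNAs of both mitochondrial ribosomal subunits were among the lower RNAs. The level of mt-Rnr1 (chrM:70-1024) was 886, 575 and 1288 CPM in mock sub-polysomal libraries A, B and C and 72.1, 58.1 and 42.2 CPM in the polysomal ones. In METTL7A1 cells it was 837, 875 and 1119 CPM in sub-polysomal and 50.7, 33.1 and 397 CPM in polysomal libraries D, E and F. No polysomal library reached the lowest sub-polysomal one, and the change was 15.96-fold in mock (log2 -3.997, SE 0.63, adjusted p = 5.77e-05 by edgeR's quasi-likelihood test) and 5.91-fold in METTL7A1 cells (log2 -2.56, SE 0.59, adjusted p = 0.00114). The larger mt-Rnr2 (chrM:1094-2675) was 1922, 1266 and 3618 CPM in mock sub-polysomal RNA against 237, 160 and 164 CPM in polysomal RNA, and 1878, 1569.7 and 2302 against 117, 63.0 and 626 CPM in METTL7A1 cells. It fell 12.1-fold in mock (log2 -3.60, SE 0.59) and 7.16-fold in METTL7A1 cells (log2 -2.84, SE 0.57). Without mock replicate C the mt-Rnr2 change in mock cells was -3.01. Without METTL7A1 polysomal library F, the log2 change in METTL7A1 cells was -4.49 for mt-Rnr1 and -4.41 for mt-Rnr2, both still called. Without METTL7A1 replicate D in both pools, mt-Rnr1 had -2.22 with an adjusted p = 0.0125 by the same test and was no longer called.

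With all libraries, the fall between the pools was steepest among the 9 for mt-Nd1 (chrM:2751-3707), a membrane subunit of complex I. Its level was 8639.8, 12728 and 19013 CPM in mock sub-polysomal libraries and 339, 978 and 653 CPM in the polysomal ones, and 12120.1, 18113 and 26429 against 728, 836 and 1033 CPM in METTL7A1 cells. The difference was 20.5-fold in mock (log2 -4.36, SE 0.39, adjusted p = 3.32e-07 by edgeR's quasi-likelihood test) and 21.8-fold in METTL7A1 cells (log2 -4.45, SE 0.39, adjusted p = 7.41e-08). Without METTL7A1 replicate F in both pools it had -4.28 in METTL7A1 cells, and mt-Rnr1 had -4.36. Of the other complex I mRNAs, mt-Nd2, the next mRNA along the strand, fell 7.85-fold and 6.96-fold, and mt-Nd4 fell 5.19-fold and 5.55-fold in mock and METTL7A1 cells. The only mRNA from the opposite strand, mt-Nd6, fell 7.84-fold and 5.76-fold. In mock cells its log2 change of -2.97 became -3.73 without replicate C and -2.27 without replicate A, and that of mt-Nd2, also -2.97, became -3.58 without replicate B, all still called.

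The complex I mRNA mt-Nd5 (chrM:11742-13565), the longest of the set, was the one gene not called. Its level was 1729, 1537 and 2097 CPM in mock sub-polysomal libraries A, B and C and 447, 1323 and 764 CPM in their polysomal libraries. In METTL7A1 cells it was 930, 923 and 2148 CPM in sub-polysomal and 517, 503 and 660 CPM in polysomal libraries D, E and F. The pools did not overlap in either genotype. The log2 change was -1.08 (SE 0.33, adjusted p = 0.0112 by edgeR's quasi-likelihood test) in mock and -1.25 (SE 0.33, adjusted p = 0.00314) in METTL7A1 cells, which missed the limits of a call. Without mock replicate B it was -1.66 in mock cells, with an adjusted p = 0.00168 by the same test, and was called.

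Complexes III and IV were represented by mt-Cytb and mt-Co1, the catalytic subunit of cytochrome oxidase. The level of mt-Cytb (chrM:14145-15288) was 33367, 33109.9 and 36309 CPM in mock sub-polysomal and 2163, 7397 and 5760 CPM in polysomal libraries, a fall of 6.71-fold (log2 -2.75, SE 0.33). In METTL7A1 cells it was 20513, 23508 and 31872 against 3976, 4192 and 5198 CPM, a fall of 5.68-fold (log2 -2.51, SE 0.33). The values of mt-Co1 were 13601, 14689.5 and 18284 against 1447, 4752 and 3074 CPM in mock cells, a fall of 5.02-fold (log2 -2.33, SE 0.33), and it fell 4.54-fold in METTL7A1 cells. Mock polysomal library A was the lowest of its group for all 7 measured mRNAs and the highest for both rRNAs.

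**Figure D3:**
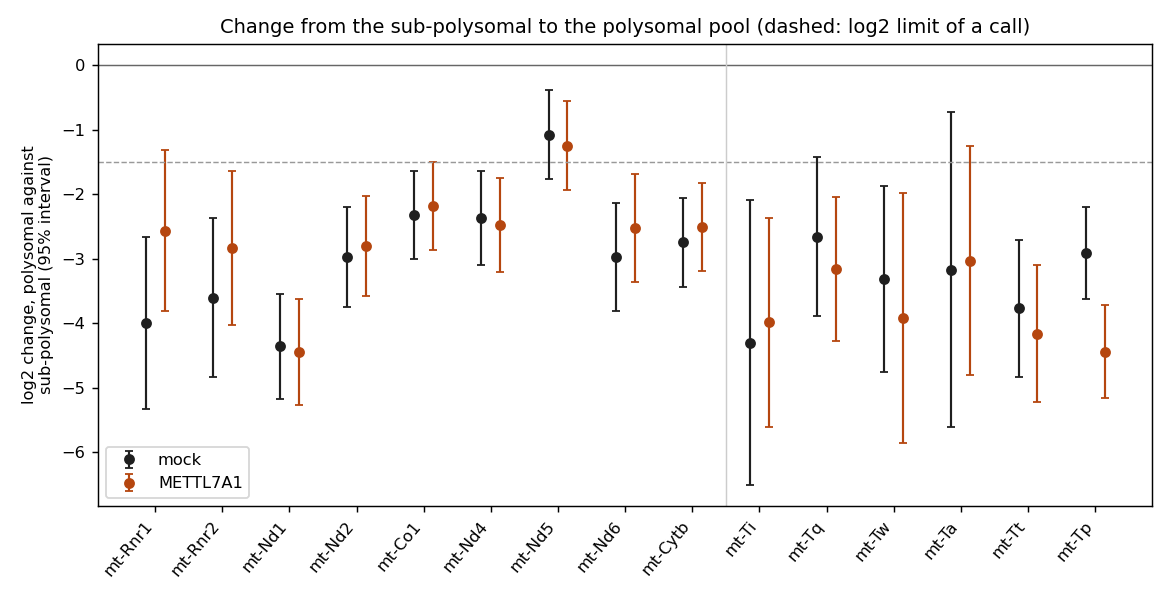
Log2 change of polysomal against sub-polysomal RNA with its 95% interval in mock and METTL7A1 cells, for 9 mRNAs and rRNAs (left) and 6 tRNAs (right). The 5 tRNAs other than mt-Tp passed the filter only through the sub-polysomal pool. Among the mRNAs and rRNAs every value lies below 0, from -4.45 for mt-Nd1 in METTL7A1 cells to -1.08 for mt-Nd5 in mock cells.

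The 7 mRNAs did not fall alike, and their relative amounts changed between pools. Within a library, mt-Nd1 had 5.00, 8.28 and 9.07 counts for each count of mt-Nd5 in mock sub-polysomal RNA and 0.759, 0.739 and 0.854 in polysomal RNA. In METTL7A1 cells this ratio was 13.03, 19.6 and 12.3 in sub-polysomal and 1.41, 1.66 and 1.57 in polysomal RNA. The ratio needs no scaling between libraries, and its 9.22-fold and 9.50-fold differences between pools follow from the choice of the genes at either end of the range. Beside mt-Cytb, mt-Co1 changed less, with 40.8 to 50.4 counts per 100 mt-Cytb counts in mock sub-polysomal and 53.4 to 66.9 in polysomal RNA. By annotated length, longer mRNAs were less reduced, with a Spearman correlation of 0.893 across the 7 mRNAs in each genotype, from mt-Nd5 (1824 bases) down to mt-Nd1 (957 bases), with the shortest, mt-Nd6 (519 bases), off this order. With only the bases outside the copy taken as the lengths of mt-Co1 and mt-Nd4, it was 0.464 in each genotype. The same sign was found among all 12224 genes (0.513 in mock and 0.505 in METTL7A1 cells), so the order by length was shared with the rest of the table. With both rRNAs added it was 0.60 and 0.467, and mt-Rnr2, which is longer than mt-Co1 (1582 and 1545 bases), fell further than mt-Co1 did. The change also followed the order of the genes along the plus strand, with a correlation of 0.762 in mock and 0.667 in METTL7A1 cells across its 6 mRNAs and 2 rRNAs, and that order ran partly with length (0.60 across the 6 mRNAs). Genes are not independent replicates.

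**Figure D4:**
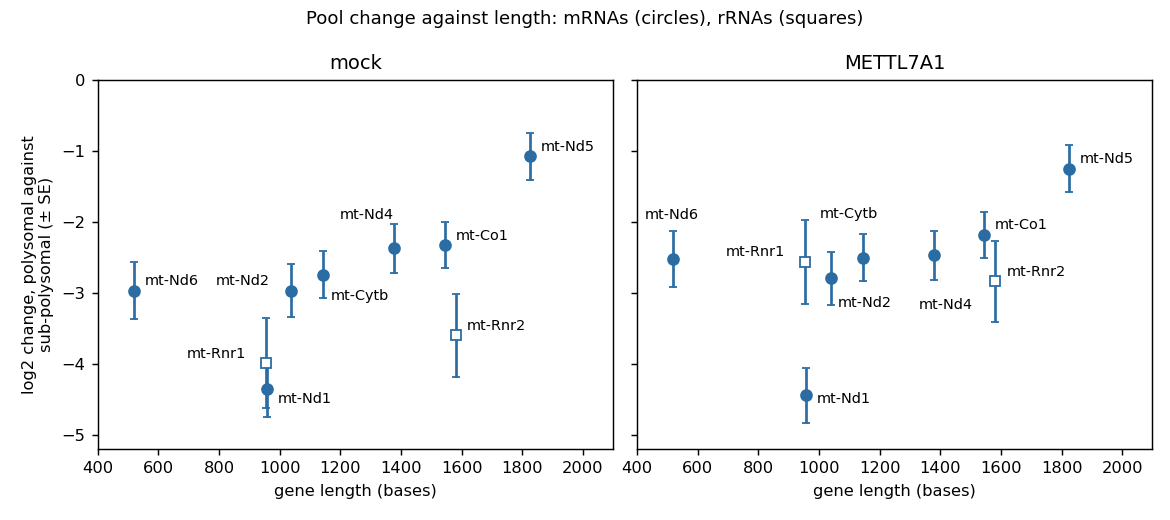
Log2 change of polysomal against sub-polysomal RNA (± SE) against gene length in bases, for 7 mRNAs (circles) and 2 rRNAs (squares) in mock (left) and METTL7A1 cells (right). The longest mRNA, mt-Nd5, is the least reduced (-1.08 and -1.25) and mt-Nd1 the most reduced (-4.36 and -4.45).

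The tRNAs had few counts, at most 65 in a library. Of the 6 that passed the filter, all but mt-Tp reached 1 CPM in 3 libraries only in the sub-polysomal pool, so that a lower polysomal value was favoured by the filter and no count of calls is drawn from them. The proline tRNA mt-Tp, on the minus strand, which also passed through mock polysomal libraries, had 19, 25 and 43 counts in mock sub-polysomal and 7, 7 and 12 in polysomal libraries, which was 7.55-fold lower after scaling (log2 -2.92, SE 0.34). In METTL7A1 cells it had 65, 55 and 44 against 5, 5 and 4 counts, which was 21.7-fold lower (log2 -4.44, SE 0.34). The threonine tRNA mt-Tt next to it had 8 to 53 counts in mock sub-polysomal and 1 to 7 in polysomal libraries. The isoleucine, glutamine, tryptophan and alanine tRNAs (mt-Ti, mt-Tq, mt-Tw and mt-Ta) had 0 to 6 counts in every polysomal library and 1 to 18 in the sub-polysomal ones.

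Other RNAs without a long reading frame for cytosolic ribosomes were also mostly lower in the polysomal pool. Of 8 listed, 7 were tested. The small RNAs Rn7sk, Rpph1 and Rmrp passed the filter only through the sub-polysomal pool. A lower polysomal value was thus favoured by the filter, and no count of calls is drawn from them. The others were the snoRNA host genes Gas5 and Snhg1 and the nuclear Neat1 and Malat1. In mock cells Gas5 had a log2 change of -2.91 (SE 0.26), Snhg1 of -2.52 (SE 0.24) and Neat1 of -1.95 (SE 0.26). All of these were called lower in each genotype. Malat1 had -0.82 (SE 0.33) in mock cells and was not called in either genotype. Of the 82 tested nuclear-encoded subunits of the same respiratory complexes, which are translated in the cytosol, 25 were called lower in mock and 36 in METTL7A1 cells, with medians of -1.03 and -1.36. Over all genes 6.86% and 10.3% were called lower.

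The comparison of genotypes asks whether METTL7A1 changed these RNAs within a pool, and 0 of the 9 measured mRNAs and rRNAs were called in either pool. In the polysomal pool 1.15% of all genes were called lower and 0.982% higher by edgeR's quasi-likelihood test. In the sub-polysomal pool 1.26% and 1.5% were. At an unadjusted p below 0.05 there was 1 of the 9 in each pool, mt-Rnr1 in the polysomal and mt-Nd6 in the sub-polysomal pool, while 31.2% and 42.3% of all genes passed this limit. DESeq2 and limma-voom also called 0 of the 9 in both pools, with 0 in the polysomal pool at an unadjusted p below 0.05 by either and, in the sub-polysomal pool, 1 by DESeq2 and 0 by limma-voom. The median log2 change of the 9 was -0.13 in the polysomal and -0.24 in the sub-polysomal pool, against -0.01 and -0.0015 over all genes. Intervals were wide, so that for mt-Cytb, the most precise, they ran from -0.85 to 0.45 in the polysomal and from -1.09 to 0.21 in the sub-polysomal pool.

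For mt-Rnr1, the polysomal values given above overlapped between genotypes, with METTL7A1 libraries D and E at 50.7 and 33.1 CPM inside or under the mock range of 42.2 to 72.1 CPM and only library F above it. The fitted log2 change was 1.47 (SE 0.58, adjusted p = 0.0867 by edgeR's quasi-likelihood test). Without library F it was -0.46. For mt-Rnr2 it was 0.52 (SE 0.54) with library F and -1.06 without. Library F was also the one with high cytosolic rRNA, at 26349.9 CPM of Gm42418 against 1235 to 6211 CPM in the 11 other libraries. The part of rRNA depletion in this was not tested.

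**Figure D5:**
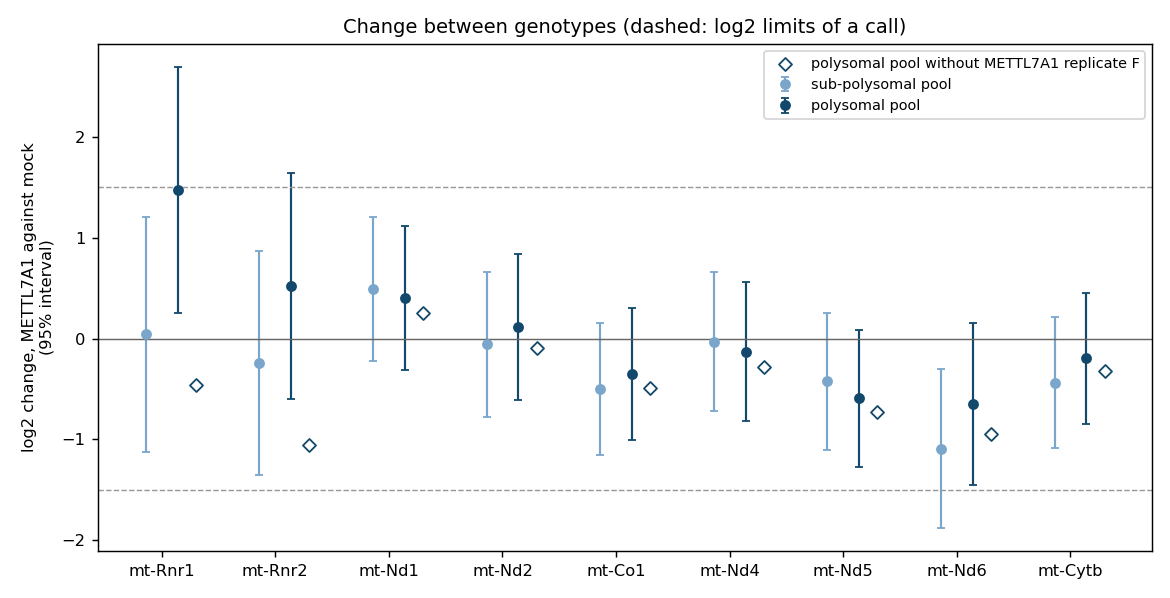
Log2 change of METTL7A1 against mock cells with its 95% interval in the sub-polysomal and polysomal pools for the 9 measured mRNAs and rRNAs, and the polysomal value without METTL7A1 replicate F (diamonds). The polysomal values of mt-Rnr1 (1.47) and mt-Rnr2 (0.52) turn to -0.46 and -1.06 without that library, and no value passes the limits of a call.

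The complex I mRNA mt-Nd6 (chrM:13552-14070 on the minus strand) had the largest difference of the 9 between genotypes in the sub-polysomal pool. It was at 1023, 657 and 200 CPM in mock libraries A, B and C, and at 318, 262 and 298 CPM in METTL7A1 libraries D, E and F, inside the mock range. The log2 change was -1.09 (SE 0.38, adjusted p = 0.0332 by edgeR's quasi-likelihood test), which missed the limits of a call. Leaving out mock replicate C gave -1.52 with an adjusted p = 8.25e-05 by the same test, a call, and leaving out mock replicate A gave -0.57 with an adjusted p = 0.231. Library C was the highest of the 3 mock sub-polysomal libraries for the 6 measured mRNAs of the plus strand and the lowest for mt-Nd6. The kit kept the strand, but whether the counting used it is not given in the sources used here, so reads of mt-Nd6 and of RNA from the opposite strand may be mixed.

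The other mRNAs had an unadjusted p above 0.05 between genotypes in both pools. In the sub-polysomal pool mt-Nd1 had a log2 change of 0.49 (SE 0.34), mt-Co1 of -0.50 (SE 0.31), mt-Cytb of -0.44 (SE 0.31) and mt-Nd5 of -0.42 (SE 0.33), and mt-Nd2, mt-Nd4 and both rRNAs lay between -0.24 and 0.04. The sub-polysomal levels of mt-Cytb given above did not overlap between genotypes, with all 3 METTL7A1 libraries below the mock ones. Those of the other measured mRNAs and rRNAs overlapped. The fitted change of mt-Cytb had an adjusted p = 0.298 by edgeR's quasi-likelihood test. How many of all genes lacked overlap was not counted, so no difference is drawn from this. In the polysomal pool mt-Nd6 had -0.65 (SE 0.38), mt-Nd5 -0.59 (SE 0.33), mt-Nd1 0.40 (SE 0.34), mt-Co1 -0.35 (SE 0.31), mt-Cytb -0.20 (SE 0.31), mt-Nd4 -0.13 (SE 0.33) and mt-Nd2 0.11 (SE 0.35). The counts of mt-Nd1 per mt-Cytb count were 0.259, 0.384 and 0.524 in mock sub-polysomal and 0.591, 0.770 and 0.829 in METTL7A1 sub-polysomal libraries. In polysomal RNA they were 0.157, 0.132 and 0.113 in mock and 0.183, 0.199 and 0.199 in METTL7A1 libraries. The genotypes did not overlap in either pool, with 1.93-fold and 1.46-fold differences of the mean log ratio and an exact permutation p of 0.1 (two-sided) in each, the smallest that 3 against 3 libraries allow. This ratio was chosen after its values had been seen, among 14 comparisons of ratios between genotypes, over which the adjusted p was 0.233. The sub-polysomal tRNA mt-Tp was 10.7, 7.87 and 8.49 CPM in mock and 21.6, 13.6 and 10.5 CPM in METTL7A1 libraries (log2 0.77, SE 0.26, adjusted p = 0.0328 by edgeR's quasi-likelihood test) and was not called.

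The shift between genotypes, the log2 change between pools in METTL7A1 cells minus that in mock cells, was called for 0 of the 9, as it was for 0% of all genes in edgeR's quasi-likelihood test. The tRNA mt-Tp, with few polysomal counts, had -1.53 (SE 0.55, adjusted p = 0.193 by the same test). Below an unadjusted p of 0.05 lay 0 of the 9, against 1911 of all genes, or 15.6%. DESeq2 and limma-voom called 0 of the 9. The values of the 9 ran from -0.17 (SE 0.46) for mt-Nd5 to 1.43 (SE 0.80, adjusted p = 0.401 by edgeR's quasi-likelihood test) for mt-Rnr1, with a median of 0.17. Without METTL7A1 polysomal library F, mt-Rnr1 came to -0.50. The 95% interval for the 7 mRNAs was widest for mt-Nd6, from -0.67 to 1.56, so that moderate shifts were not detectable with these libraries.

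The nuclear genes that copy, transcribe, process and translate mitochondrial RNA had few calls between pools and 0 between genotypes, where calls were rare over all genes. Of 64 listed, 62 were tested, and 1 was called lower in the polysomal pool of mock cells and 2 of METTL7A1 cells, with 0 higher and medians of -0.21 and 0.03. Over all genes 6.86% and 10.3% were called lower. The 2 were Fastk, a mitochondrial RNA-binding protein linked to mt-Nd6 mRNA (log2 -1.64, SE 0.21, in mock and -2.27, SE 0.22, in METTL7A1 cells), and Slirp, which binds mitochondrial mRNAs with Lrpprc (-1.78, SE 0.18, in METTL7A1 cells). Between genotypes 0 of the 62 were called in either pool. Over all genes 1.15% were called lower and 0.982% higher in the polysomal pool, and 1.26% and 1.5% in the sub-polysomal pool. At these shares few calls among 62 genes would be found, so the 0 is not read as a trait of the list. An adjusted p below 0.05 was found for 5 in the polysomal and 17 in the sub-polysomal pool, where 18% and 31.4% of all genes had one. Those with the smallest adjusted p in the sub-polysomal pool were the release factor Mtrf1l (log2 -0.94, SE 0.16), Tbrg4, a FASTK family protein (0.81, SE 0.16), and the initiation factor Mtif2 (-1.28, SE 0.27). In the polysomal pool they were the release factor Mtrf1 (-1.10, SE 0.24), Mterf3, a repressor of mitochondrial transcription (-0.57, SE 0.13), and the helicase Supv3l1 (0.74, SE 0.18).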

How the data were processed

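Counts per gene were deposited without normalization in 1 table of 12 libraries. For total RNA libraries of the same cells, the authors trimmed reads with BBDuk, aligned them to mm10 with STAR and counted them with featureCounts on the Ensembl GRCm38 annotation, and the submitters' processing notes name bcl2fastq 2.20.0.422, STAR 2.5.3a, R 3.5.1 and featureCounts for these libraries. The strand setting and the treatment of reads with several matches are not given in the sources used here. The mitochondrial genes, the gene lists and the tests were chosen with earlier results of these data known.

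The 12224 genes that reached 1 CPM in 3 or more libraries were scaled by TMM. A model of the 4 group means was fitted to all 12 libraries (edgeR 4.0.16, R 4.3.3), which share 1 estimate of the spread. P-values came from edgeR's quasi-likelihood test and were adjusted over all genes tested by the Benjamini-Hochberg method. Genes were called at a log2 change beyond 1.5 with an adjusted p below 0.01, the values the study uses for total RNA. SEs were taken from the log2 change and its F statistic. Levels between genes were compared per kilobase with the gene lengths of the annotation. All 15 mRNAs and rRNAs and each tRNA that passed the filter were to be named, and of the nuclear list the 5 largest called or the 3 with the smallest adjusted p. Gene and pseudogene sequences were the transcripts of the GENCODE annotation of GRCm38, with 37 of 37 mitochondrial genes matched, and were compared without gaps after alignment with Biopython. The fit was tested on simulated counts with known changes. Single ratios were compared by two-sided exact permutation tests.

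Samples with the same letter in both pools of a genotype did not deviate together (r between -0.29 and 0.11), so letters were not treated as pairs in the main fit. Whether a letter marks 1 gradient is not labelled, and this correlation cannot settle it. The alternatives were DESeq2 1.42.0, limma-voom (limma 3.58.1), RLE factors, TMM factors set without mitochondrial genes, the letter as a replicate block, no filter, a minimum of 10 counts per gene in each library, the compared groups fitted alone, a call by an adjusted p below 0.05 alone, each replicate left out, a library total without the 50 most abundant other genes, and lengths less 100 bases. The length outside the copy and the omission of METTL7A1 polysomal library F were added after seeing the data. Intervals and limits from single counts cover counting error only.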

Additional observations from a re-analysis of the deposited data

How the results depend on the processing

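The counts of mRNAs and rRNAs called between pools lay between 7 and 9 of 9 in each genotype under every alternative run, the replicate block included, under which they were 8 and 8. The block with the letters changed no call. It moved the log2 change between pools in METTL7A1 cells from -2.56 to -3.43 for mt-Rnr1 and from -2.84 to -3.52 for mt-Rnr2. METTL7A1 against mock had 0 calls in the polysomal pool and for the shift under every alternative run. With no filter mt-Rnr1 missed these calls by the limit on the log2 change alone, with 1.47 and an adjusted p = 6.26e-14 in the polysomal pool and 1.41 and 3.46e-05 for the shift by edgeR's quasi-likelihood test, as did mt-Nd6 in the sub-polysomal pool with -1.06 and 2.34e-08. Between pools in mock cells, mt-Rnr1 had an adjusted p = 1.07e-86 by the same test with no filter, against 5.77e-05 in the main fit. Its log2 change there hardly moved, with -3.94 and -3.997. The p-values with no filter are thus not comparable with those of the main fit, and no difference between genotypes is drawn from them. The METTL7A1 polysomal level of mt-Rnr1 was high in library F alone (397 CPM, against 50.7 and 33.1 CPM in D and E). A fit without both the filter and library F was not run. In the sub-polysomal pool there was 1 call when calls rested on an adjusted p below 0.05 alone, and 0 to 1 when 1 replicate was left out, the 1 being mt-Nd6 without mock replicate C. The share of counts on mitochondrial genes rose in every library with a total that left out the 50 most abundant other genes. In mock sub-polysomal RNA its mean moved from 7.36% to 8.83%. In METTL7A1 sub-polysomal libraries D, E and F it moved from 4.37%, 5.33% and 7.67% to 5.39%, 6.61% and 9.51%.

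Log2 changes between genotypes, none of them called, changed sign, among them those of mt-Rnr1, which were above 1 in the polysomal pool and for the shift. Other than for library F the cause was not tested. With 1 replicate left out, the polysomal values ran from -0.46 to 1.96 for mt-Rnr1, -1.06 to 0.99 for mt-Rnr2, -0.22 to 0.69 for mt-Nd2, -0.68 to 0.095 for mt-Co1, -0.50 to 0.30 for mt-Nd4 and -0.55 to 0.16 for mt-Cytb. The sub-polysomal values ran from -0.21 to 0.37 for mt-Rnr1, -0.54 to 0.26 for mt-Rnr2, -0.42 to 0.16 for mt-Nd2 and -0.26 to 0.18 for mt-Nd4. The shift ran from -0.36 to 1.86 for mt-Rnr1, -0.66 to 1.11 for mt-Rnr2 and -0.44 to 0.41 for mt-Nd5. Without METTL7A1 polysomal library F alone, the polysomal values were -0.46 for mt-Rnr1, -1.06 for mt-Rnr2 and -0.09 for mt-Nd2, and the shift -0.50 for mt-Rnr1 and -0.81 for mt-Rnr2. By limma-voom the polysomal values were -0.14 for mt-Rnr2 and 0.061 for mt-Nd4, and the shift -0.025 for mt-Rnr2 and 0.067 for mt-Nd5. With the replicate block the shift was -0.044 for mt-Rnr2 and 0.072 for mt-Nd5.

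Depth limited the tRNAs, with at most 65 counts in a library, while mRNAs and rRNAs that passed the filter had at least 258. The intervals of these mRNAs and rRNAs rested on the estimate of the spread shared by all 12 libraries. The part of depth in their width was not tested. The genes inside the copied span could not be compared under any alternative.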

Other observations

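The ratio of the mitochondrial ribosomal RNAs to each other was looked at after its values had been seen, and no test of it passed. For each count of mt-Rnr1 there were 3.29, 2.75 and 3.89 counts of mt-Rnr2 in mock polysomal libraries A, B and C and 2.30, 1.90 and 1.58 in METTL7A1 libraries D, E and F, which did not overlap, with or without library F. With all 6 libraries the exact permutation p was 0.1, the smallest possible, and 0.233 after adjustment over 14 comparisons of ratios. In sub-polysomal RNA the ratio was 2.17, 2.20 and 2.81 in mock and 2.24, 1.79 and 2.06 in METTL7A1 libraries, which overlapped. The part of rRNA depletion in these ratios was not tested.

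The make-up of the mitochondrial mRNA counts differed between pools for mt-Nd1, mt-Nd4, mt-Nd5 and mt-Co1, whose shares did not overlap in either genotype. In mock cells mt-Nd1 took 12.8% to 20.8% of the counts of the 13 mRNAs in sub-polysomal and 5.35% to 6.45% in polysomal RNA, and in METTL7A1 cells 24.0% to 28.9% and 8.10% to 8.78%. The share of mt-Nd5 was 2.07% to 2.56% and 6.27% to 8.504% in mock cells and 1.45% to 2.35% and 5.28% to 5.75% in METTL7A1 cells. The share of mt-Nd4 was 5.55% to 7.02% and 7.29% to 8.57% in mock cells and 6.69% to 8.12% and 8.36% to 8.76% in METTL7A1 cells. The share of mt-Co1 was 19.8% to 20.1% and 25.2% to 27.5% in mock cells and 15.7% to 16.7% and 23.4% to 24.0% in METTL7A1 cells. The share of mt-Cytb, the largest in every library, overlapped between pools in mock cells (39.8% to 49.3% and 41.1% to 47.2%) but not in METTL7A1 cells (34.9% to 40.7% and 42.8% to 44.2%). The shares of a library add up to a fixed whole, so a lower share of mt-Nd1 by itself raises those of the others, mt-Cytb included. They are therefore not read as separate differences, nor mt-Cytb as a difference between genotypes. These shares are of the counts as listed, in which 6 of the 13 mRNAs were at or near 0.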
